A study of Mus musculus with 8 samples.

Results

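The genes described here are 10 fibroblast, mural and mesenchymal genes (Thy1, Pdgfrb, Lum, Dcn, Ogn, Postn, Tagln, Acta2, Twist1 and Fabp4), followed over genotype and day in cultures of motor neurons made from mouse embryonic stem cells. Members were the probes whose RefSeq accession belongs to 1 of these 10 symbols. All 10 had a probe, 1 each, and all 10 were among the 24633 genes tested. RNA was measured on 8 one-colour Agilent arrays, 2 in each of 4 groups: Litchi knockout (LitchiKO) on day 9, control (Ctrl) on day 9, LitchiKO on day 7 and Ctrl on day 7. All 4 groups came from male cells of the Hb9GFP line, and all had been given retinoic acid and Sonic hedgehog (RA/Shh) from day 2 to day 5, were split into single cells on day 5 and were then kept in GDNF until sampling. The labels do not say how many knockout clones were used or whether the replicates were separate cultures, and the p-values below therefore reflect only how far these arrays vary, part of which may be technical. Litchi was found 0 times among the gene symbols and synonyms used for naming, so the targeted gene gives no check of the labels here.

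Fibroblasts build the collagen and proteoglycan matrix of connective tissue, while mural cells, the pericytes and smooth muscle cells, wrap blood vessels and contract through smooth muscle actin. Both kinds of cell arise mainly from mesoderm and, in the head, from neural crest, and neither is part of the neural lineage that gives motor neurons. Pdgfrb is the receptor through which platelet-derived growth factor recruits mural cells. Several of the 10 genes are also active elsewhere: Thy1 is a surface protein of many neurons as well as of fibroblasts, Fabp4 is made by adipocytes, macrophages and some endothelial cells, and Twist1 is active in cranial neural crest. A culture is a mixture, so in these bulk measurements fewer cells of a type and less RNA per cell cannot be told apart.

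Promoter sequence was at hand for 4 of the 10 genes (Ogn, Postn, Acta2 and Twist1), from RefSeq on GRCm38.p6. The 250 bases before the start are shown for 3 of them, the 3 whose day 9 levels passed the test against day 7 in control cultures, with the E-box CANNTG (the letters that basic helix-loop-helix factors such as Twist1 bind) in capitals for Ogn and Acta2 and the TATA box TATAAA in capitals for Postn. The Ogn window is chr13:49607765-49608014 on the plus strand, the Postn window chr3:54360857-54361106 on the plus strand and the Acta2 window chr19:34255374-34255623 on the minus strand, each written 5′ to 3′.
Ogn: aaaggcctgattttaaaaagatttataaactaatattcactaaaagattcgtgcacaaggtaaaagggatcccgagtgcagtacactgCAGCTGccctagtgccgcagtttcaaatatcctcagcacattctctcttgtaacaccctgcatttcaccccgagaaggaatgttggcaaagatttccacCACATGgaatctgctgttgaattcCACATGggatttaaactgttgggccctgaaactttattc
Postn: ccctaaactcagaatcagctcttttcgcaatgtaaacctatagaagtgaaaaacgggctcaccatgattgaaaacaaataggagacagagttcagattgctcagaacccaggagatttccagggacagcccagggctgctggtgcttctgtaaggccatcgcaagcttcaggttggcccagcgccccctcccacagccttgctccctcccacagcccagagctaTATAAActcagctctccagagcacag
Acta2: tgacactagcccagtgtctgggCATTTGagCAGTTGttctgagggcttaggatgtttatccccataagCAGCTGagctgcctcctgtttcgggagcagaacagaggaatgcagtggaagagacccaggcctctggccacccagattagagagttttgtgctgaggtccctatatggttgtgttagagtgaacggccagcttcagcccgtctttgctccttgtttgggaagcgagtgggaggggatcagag
The Ogn window held 3 E-boxes, whose first bases lie 162, 63 and 39 bases before the start, and the Acta2 window held 3, at 228, 220 and 182 bases. An E-box on either strand was present in 66.2% of the 32851 promoter windows searched, close to its presence in 2 of the 4 genes. Postn, which has 2 annotated starts in the table, had TATAAA 26 bases before the second, and this box was present in 12.4% of all windows. TATAAA was also found for Ogn (229 and 227 bases before the start) and Twist1 (126 bases). The MCAT core CATTCC, an element of muscle promoters, was found once each for Ogn (86 bases before the start) and Acta2 (146 bases), against 12.6% of all windows. The strict CArG box of serum response factor, the AP-1 site TGANTCA and the core of the interferon-stimulated response element had 0 matches in the 4 genes, against 1.47%, 6.75% and 2.98% of all windows. The strict CArG pattern (2 C, 6 A or T, 2 G) leaves out near matches. The Acta2 window holds ccctatatgg and ccttgtttgg, each of which differs from it at a single base. Both strands were searched for each motif, and the letters alone are no evidence of binding.

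Across the arrays, the 75th percentile of spot intensity ran from 649 to 1691 units, and replicate 1 was brighter than replicate 2 in each of the 4 groups. Levels below are log2 values over that percentile, so a value of 1 means a level that lies above it by 1 log2 unit. Probes differ in how brightly they bind, so levels are compared between arrays and not between genes, and a sum over a list weighs bright probes most. The 13 motor neuron and pan-neuronal markers were above background on all 8 arrays. Of the 10 genes described here, 8 were well above background on all 8 arrays. Ogn was below background on Ctrl day 7 replicate 2. Fabp4 was below it on Ctrl day 7 replicate 2 and on both Ctrl day 9 arrays, and so entered the test only through the knockout groups.

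The comparison of knockout with control cultures asks what loss of Litchi does during motor neuron differentiation. Over both days together, 6 of the 10 genes were higher in knockout cultures: Thy1, Pdgfrb, Lum, Dcn, Postn and Fabp4. The contractile genes Tagln and Acta2, the proteoglycan Ogn and the transcription factor Twist1 did not pass the test. On day 9 alone 4 genes rose (Thy1, Pdgfrb, Postn and Fabp4), and on day 7 alone 0 passed. Among all genes tested, 5.48% were called higher in knockout cultures over the mean of both days, 1.5% on day 9 and 0.0974% on day 7. None of the 10 genes was called lower in any of these comparisons, against 9.35%, 3.96% and 0.118% of all genes.

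Among the surface proteins, Thy1, a GPI-anchored glycoprotein, had log2 levels of 0.99 and 1.28 in LitchiKO cultures on day 9, against -1.35 and -1.52 in Ctrl cultures. On day 7 it had 1.08 and 0.48 in LitchiKO cultures, against -1.11 and -1.84 in Ctrl cultures. All 4 knockout arrays lay above all 4 control arrays, and within each genotype the days overlapped. The log2 change of Thy1 was 2.57 ± 0.30 (SE of the fit), a 5.93-fold higher level, on day 9 (adjusted p = 0.0177). On day 7 it was 2.25 ± 0.30 (adjusted p = 0.0601), which did not pass, and for the mean of both days 2.41 ± 0.21 (adjusted p = 0.00529).

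Pdgfrb, the receptor tyrosine kinase of mural cells, had log2 levels of -0.16 and -0.35 in LitchiKO cultures on day 9, against -1.68 and -1.26 in Ctrl cultures, and of 0.37 and 0.21 in LitchiKO cultures on day 7, against -0.95 and -0.73 in Ctrl cultures. The 4 knockout arrays again lay above the 4 control arrays. Its log2 change was 1.21 ± 0.19 on day 9 (2.32-fold, adjusted p = 0.0274), 1.14 ± 0.19 on day 7 (adjusted p = 0.0795) and 1.17 ± 0.13 for the mean of both days (adjusted p = 0.00841). Csf1r, the macrophage growth factor receptor whose gene is next to Pdgfrb on chromosome 18, moved the other way: it was lower in knockout cultures on day 9 by a log2 change of -1.19 ± 0.14 (adjusted p = 0.0181).

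Lum, Dcn and Ogn encode lumican, decorin and osteoglycin, small leucine-rich proteoglycans that bind collagen fibrils. Lum had log2 levels of 2.48 and 1.69 in LitchiKO cultures on day 9, against 0.50 and 1.06 in Ctrl cultures. On day 7 it had 1.48 and 1.34 in LitchiKO cultures, against 0.08 and -0.09 in Ctrl cultures. Its 4 knockout arrays were all above its 4 control arrays. The log2 change of Lum was 1.36 ± 0.21 for the mean of both days (2.57-fold, adjusted p = 0.016), with 1.30 ± 0.30 on day 9 (adjusted p = 0.0574) and 1.42 ± 0.30 on day 7 (adjusted p = 0.099).

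Dcn had log2 levels of 5.73 and 5.63 in LitchiKO cultures on day 9, against 4.77 and 5.07 in Ctrl cultures, and of 4.01 and 3.50 in LitchiKO cultures on day 7, against 3.19 and 2.37 in Ctrl cultures. Within each day the knockout arrays lay above the control arrays, while the control arrays of day 9 lay above the knockout arrays of day 7. The log2 change was 0.86 ± 0.21 for the mean of both days (1.82-fold, adjusted p = 0.0446), 0.76 ± 0.30 on day 9 (adjusted p = 0.182) and 0.97 ± 0.30 on day 7 (adjusted p = 0.173). The mean call for Dcn is the least firm of the 6: leaving out any 1 of 7 arrays brought the adjusted p to between 0.0634 and 0.119. Lum and Dcn are neighbours on chromosome 10, and the proteoglycan genes beyond Lum, Kera and Epyc, were above background on no array.

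Ogn had log2 levels of 0.14 and -0.01 in LitchiKO cultures on day 9, against 0.36 and -0.57 in Ctrl cultures, and of -2.49 and -4.03 in LitchiKO cultures on day 7, against -3.77 and -5.32 in Ctrl cultures. The genotypes overlapped on both days. Its log2 change was 0.73 ± 0.47 for the mean of both days (adjusted p = 0.324), with the largest SE of the 10 genes. Its neighbours on chromosome 13, the proteoglycan genes Omd and Aspn, were above background on no array.

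Postn encodes periostin, a matricellular protein of fibroblast-rich matrix. It had log2 levels of 1.68 and 1.59 in LitchiKO cultures on day 9, against 0.13 and 0.12 in Ctrl cultures. On day 7 it had -0.61 and -1.29 in LitchiKO cultures, against -1.63 and -2.39 in Ctrl cultures. On each day the knockout arrays were the higher ones, with the tightest replicates on day 9. The log2 change of Postn was 1.51 ± 0.31 on day 9 (2.85-fold, adjusted p = 0.0441), 1.06 ± 0.31 on day 7 (adjusted p = 0.153) and 1.29 ± 0.22 for the mean of both days (adjusted p = 0.0182).

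The contractile genes passed in none of the genotype comparisons. Tagln encodes transgelin, an actin-binding protein of smooth muscle, and Acta2 the smooth muscle alpha-actin. Tagln had log2 levels of 5.01 and 4.80 in LitchiKO cultures on day 9, against 5.36 and 4.94 in Ctrl cultures, and of 3.98 and 3.75 in LitchiKO cultures on day 7, against 3.43 and 3.12 in Ctrl cultures. Acta2 had 3.01 and 2.55 in LitchiKO cultures on day 9, against 3.35 and 2.92 in Ctrl cultures, and 3.07 and 3.04 in LitchiKO cultures on day 7, against 2.18 and 2.09 in Ctrl cultures. For both genes the genotypes overlapped on day 9, while on day 7 the knockout arrays lay above the control arrays. The log2 change of Acta2 was -0.36 ± 0.21 on day 9 (adjusted p = 0.332) and 0.92 ± 0.21 on day 7 (adjusted p = 0.112), and that of Tagln was -0.25 ± 0.20 (adjusted p = 0.486) and 0.59 ± 0.20 (adjusted p = 0.204). The Acta2 probe is printed 10 times on the array, and the 8 to 10 spots used had an SD between 0.018 and 0.060 log2 units within an array.

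Twist1, a basic helix-loop-helix factor of mesenchyme, had log2 levels of 0.04 and 0.40 in LitchiKO cultures on day 9, against 0.71 and 0.13 in Ctrl cultures, and of -0.65 and -1.36 in LitchiKO cultures on day 7, against -0.52 and -1.06 in Ctrl cultures. The genotypes overlapped on both days. Its log2 change was -0.21 ± 0.24 for the mean of both days (adjusted p = 0.571). Fabp4, the adipocyte fatty acid binding protein, had log2 levels of -3.05 and -4.40 in LitchiKO cultures on day 9, against -6.60 and -6.77 in Ctrl cultures, both of these below background. On day 7 it had -3.69 and -4.01 in LitchiKO cultures, against -5.30 and, below background, -6.07 in Ctrl cultures. All 4 knockout arrays lay above all 4 control arrays. Fabp4 was called higher in knockout cultures on day 9, by a change fitted against control values below background (adjusted p = 0.0264 in limma). That p does not belong to the bound. With the processed signal the bound was at least 3.07-fold, which sets the knockout mean against the lowest signal that counts as above background. On day 7 its log2 change was 1.84 ± 0.45 (adjusted p = 0.124), with 1 of 2 control arrays measured above background. After another background correction (normexp) the Fabp4 change shrank to 0.71 on day 9 (adjusted p = 0.327) and 0.66 on day 7 (adjusted p = 0.482).

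**Figure D1:**
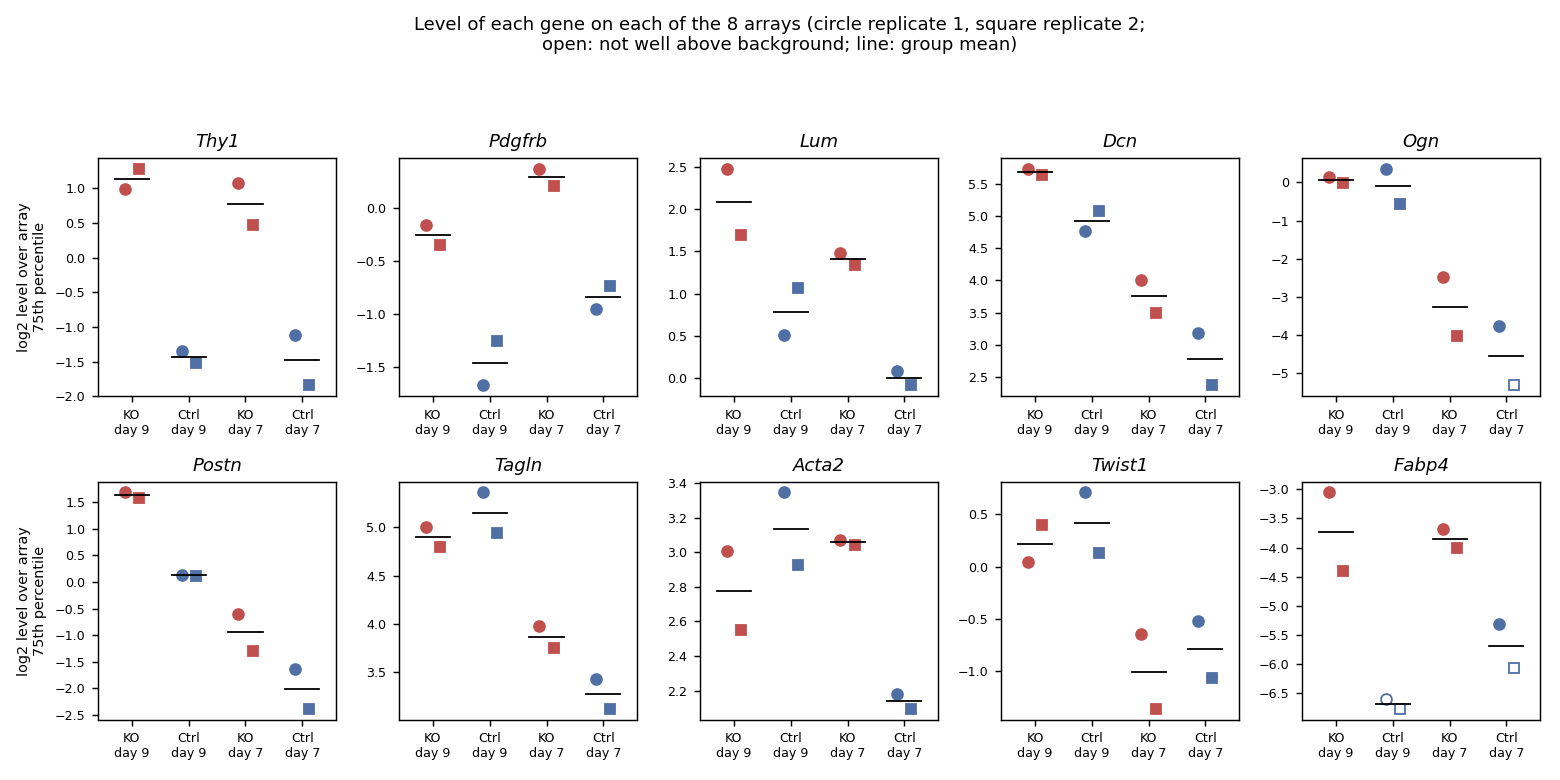
Log2 level over the array's 75th percentile (y axis, a scale of its own for each gene) of the 10 genes on the 8 arrays, by genotype and day (x axis); red, knockout (KO); blue, control (Ctrl); circles, replicate 1; squares, replicate 2; open symbols, not well above background; lines, group means. Thy1, Pdgfrb, Lum and Fabp4 have all 4 knockout arrays above all 4 control arrays, whereas Ogn and Twist1 overlap between genotypes on both days.

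Some or all of the 4 day 9 calls were lost when 1 array of a day 9 group was left out. Calls among all genes fell in those fits too. With any 1 array left out, the day 9 log2 change ran from 2.42 to 2.72 for Thy1 and from 1.46 to 1.56 for Postn. That of Pdgfrb ran from 1.00 to 1.42 and that of Fabp4, fitted against control arrays below background, from 2.29 to 3.63. Despite its narrow range, Postn had the day 9 call nearest the threshold (adjusted p = 0.0441 in limma). It was also the call of the 4 most often lost under the alternative settings. Without Fabp4, the gene that entered only through the knockout groups, 3 of 9 genes were called on day 9 and 5 of 9 for the mean of both days. On day 7, where 0 passed after Benjamini-Hochberg adjustment in limma, 8 of the 10 genes were higher at an unadjusted p under 0.05, against 7.07% of all genes, and 0 were lower, against 11.8%. The knockout arrays of a day lay wholly above the control arrays for 6 of the 10 genes on day 9, against 27.1% of all genes, and for 8 on day 7, against 20.5%. It was so on both days for 6 genes, against 13.0% of all genes, and for 4 (Thy1, Pdgfrb, Lum and Fabp4) all 4 knockout arrays lay above all 4 control arrays, against 5.38%. Fabp4 is in the unadjusted count, in each of these counts of separated arrays and in the medians that follow. Because it entered only through the knockout groups, its place in them is no independent result. The 10 genes were also chosen with earlier results of these data known. Their excess over the shares of all genes is therefore no independent result either, here and in the other comparisons. The median log2 change over the 10 genes was 0.98 on day 9 and 1.1 on day 7, beside -0.02 and -0.05 over all genes tested.

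The difference between the knockout effects of day 9 and day 7 was tested as an interaction. None of the 10 genes passed, with adjusted p-values between 0.712 and 0.999, and 0.00406% of all genes did. At an unadjusted p under 0.05 the 2 contractile genes had a lower knockout effect on day 9 than on day 7, against 3.33% of all genes lower. The day 9 effect minus the day 7 effect was -1.28 ± 0.30 for Acta2 (unadjusted p = 0.00416, adjusted p = 0.712) and -0.84 ± 0.29 for Tagln (unadjusted p = 0.0249, adjusted p = 0.823). The day 7 excess and its lack on day 9 are therefore not shown to differ for these genes.

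**Figure D2:**
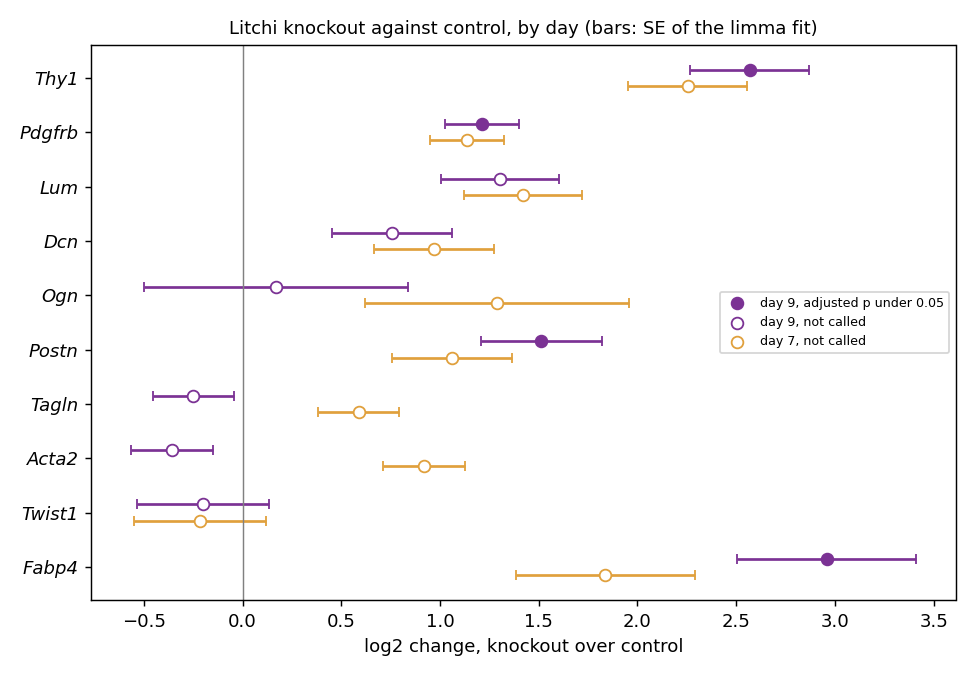
Log2 change of each of the 10 genes, knockout over control (x axis), on day 9 (purple) and day 7 (orange); bars are the SE of the limma fit, and filled points had an adjusted p under 0.05. The filled points are Thy1 at 2.57, Pdgfrb at 1.21, Postn at 1.51 and Fabp4, all on day 9; the Fabp4 point is a fitted value against 2 control arrays below background, for which the bound is at least 3.07-fold.

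Day 9 was next compared with day 7 in each genotype, which follows the cultures as they age after they were split. The matrix genes Dcn, Ogn and Postn and the contractile gene Tagln were higher on day 9 in both genotypes, and Acta2 was higher on day 9 in control cultures. In knockout cultures 4 of the 10 genes were called higher, against 4.14% of all genes, and in control cultures 5, against 4.11%. None was called lower on day 9 in either genotype, against 4.17% of all genes in knockout cultures and 3.26% in control cultures. Both day 9 arrays lay above both day 7 arrays for 6 genes in knockout cultures and 7 in control cultures, against 22.1% and 18.9% of all genes, and below them for 2 genes in each, against 35.9% of all genes in each.

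Ogn had the widest day difference of the 10 genes, with a log2 change of 3.32 ± 0.67 in knockout cultures (adjusted p = 0.0336) and 4.44 ± 0.67 in control cultures (adjusted p = 0.0192). One of the 2 Ctrl day 7 arrays was below background for Ogn, and its change in control cultures ran from 3.67 to 5.22 with 1 array left out and was 3.02 with normexp; in knockout cultures it ran from 2.55 to 4.09 and was 2.62. Postn was higher on day 9 by 2.58 ± 0.31 in knockout cultures (adjusted p = 0.00786) and by 2.13 ± 0.31 in control cultures (4.39-fold, adjusted p = 0.0175). Dcn was higher by 1.93 ± 0.30 in knockout cultures (3.81-fold, adjusted p = 0.0162) and by 2.14 ± 0.30 in control cultures (4.41-fold, adjusted p = 0.017). For these 3 matrix genes both day 9 arrays lay above both day 7 arrays in each genotype.

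Tagln was higher on day 9 by 1.04 ± 0.20 in knockout cultures (2.05-fold, adjusted p = 0.032) and by 1.88 ± 0.20 in control cultures (3.67-fold, adjusted p = 0.00896). Acta2 had a log2 change of -0.28 ± 0.21 in knockout cultures (adjusted p = 0.447) and 1.00 ± 0.21 in control cultures (2.00-fold, adjusted p = 0.0426). The gap between the genotypes' day changes is the same interaction as above and did not pass. Pdgfrb had a negative log2 change on day 9 in both genotypes, -0.55 ± 0.19 in knockout cultures (adjusted p = 0.132) and -0.62 ± 0.19 in control cultures (adjusted p = 0.1), and Twist1 a positive one of 1.23 ± 0.33 (adjusted p = 0.0753) and 1.21 ± 0.33 (adjusted p = 0.0793); neither gene passed.

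Lum, Thy1 and Fabp4 did not pass for day in either genotype. The log2 change of Lum was 0.67 ± 0.30 in knockout cultures (adjusted p = 0.213) and 0.79 ± 0.30 in control cultures (adjusted p = 0.158). That of Thy1 was 0.36 ± 0.30 (adjusted p = 0.495) and 0.04 ± 0.30 (adjusted p = 0.946). Thy1, with a genotype change of 2.41, and Ogn, with day changes of 3.32 and 4.44, thus stood at the 2 ends of the set. Some or all of the day calls were lost when 1 array of the compared groups was left out, and calls among all genes fell too. With any 1 array left out, the day change in knockout cultures ran from 1.67 to 2.18 for Dcn and from 2.24 to 2.93 for Postn. For Tagln it ran from 0.92 to 1.16. In control cultures it ran from 1.73 to 2.55 for Dcn and from 1.76 to 2.51 for Postn. For Tagln and Acta2 it ran there from 1.67 to 2.09 and from 0.79 to 1.21.

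**Figure D3:**
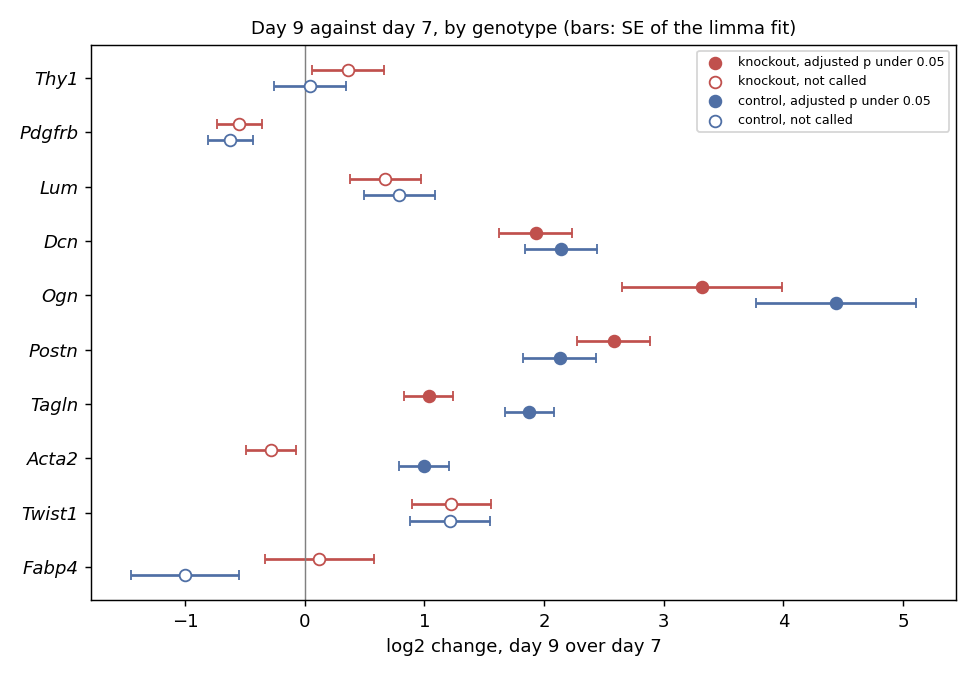
Log2 change of each of the 10 genes, day 9 over day 7 (x axis), in knockout (red) and control (blue) cultures; bars are the SE of the limma fit, and filled points had an adjusted p under 0.05. Ogn reaches 3.32 in knockout and 4.44 in control cultures, while Thy1 is at 0.36 and 0.04 and Acta2 is called in control cultures at 1.00.

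The 10 genes did not move as a block. Over the 8 arrays, 39 of the 45 pairs among them had a positive Pearson r and 6 a negative one, with a median of 0.54; the arrays share genotype, day and brightness, so these values are a description. The closest pair was Dcn and Postn (r = 0.984), followed by Ogn and Tagln (r = 0.978), and the most opposed was Pdgfrb and Twist1 (r = -0.569). Thy1 went with Fabp4 (r = 0.905) and Pdgfrb with Fabp4 (r = 0.886), values that rest on 3 of 4 control arrays being below background for Fabp4. Lum and Dcn, the adjacent genes, had r = 0.755.

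The tested genes whose levels over the 8 arrays were most like each of the 10 were taken by Pearson r. Being the highest among all tested genes with a symbol, over only 8 arrays in 4 groups, these values are high by selection. They show no shared role. For Dcn the genes were Lox (r = 0.995), the lysyl oxidase that cross-links collagen, and Daam2 (r = 0.994). Lox was above background on 6 of the 8 arrays. For Postn they were P3h3 (r = 0.991), a collagen prolyl hydroxylase, and Trmt2b (r = 0.990). Ogn was closest to Cpt1c (r = 0.997) and Scarf2 (r = 0.997), and Tagln to Rapgefl1 (r = 0.991) and the caveolin gene Cav2 (r = 0.982). Twist1 was closest to Flna (r = 0.991), which encodes the actin cross-linker filamin A, and Samd4 (r = 0.988). Thy1 was closest to the imprinted noncoding RNA Meg3 (r = 0.987) and to Ddb2 (r = 0.984), Lum to Fam149a (r = 0.987) and Cep112 (r = 0.983), and Pdgfrb to Lias (r = 0.992) and Pus10 (r = 0.992). Fabp4, with the same limit, was closest to Arpc1b (r = 0.984) and Glod4 (r = 0.979). Acta2 had the loosest match, with Dpy19l4 (r = 0.915) and the smooth muscle calponin Cnn1 (r = 0.913).

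Other genes of the same roles were counted from lists, each leaving out the 10. Of 22 other fibroblast matrix genes, 21 were tested, and 4 were higher in knockout cultures on day 9, 8 for the mean of both days and 0 on day 7 (10 higher at an unadjusted p under 0.05 in limma), with 0 lower. Their median log2 change was 0.50 on day 9, 0.69 on day 7 and 0.57 for the mean. Mfap4, a microfibril protein, changed by 1.46 ± 0.18 on day 9 (adjusted p = 0.0186), the lysyl oxidase Loxl1 by 0.97 ± 0.16 (adjusted p = 0.032), the collagen I chain Col1a1 by 1.51 ± 0.30 (adjusted p = 0.0418) and the fibulin Fbln1 by 0.70 ± 0.15 (adjusted p = 0.0498). Col1a1 and Mfap4 lie on chromosome 11, where 9.19% of the 1251 genes tested were called higher on day 9, against 1.36% elsewhere; the part of this in their values was not tested. None of the 10 genes lies on chromosome 11.

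Among 21 other mesenchymal transcription factors, 1 was higher in knockout cultures on day 9, 1 on day 7 and 5 for the mean of both days, with 0 lower. Heyl, a Notch target of mural cells, was the factor called on both days, with a log2 change of 2.21 ± 0.13 on day 9 (adjusted p = 0.0056) and 1.19 ± 0.13 on day 7 (adjusted p = 0.0396). For the mean of both days the limb and craniofacial mesenchyme factor Prrx1 changed by 1.46 ± 0.25 (adjusted p = 0.0189) and Snai2, a factor of epithelial-mesenchymal transition, by 0.74 ± 0.16 (adjusted p = 0.0342). Tcf21 and Meox2 were the other 2 called. Twist1 itself was not among the genes called, as given above.

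Of 19 other smooth muscle and pericyte genes, 16 were tested; 0 were called on day 9 or day 7 (1 and 5 higher and 1 and 1 lower at an unadjusted p under 0.05 in limma), and 1 was higher for the mean of both days. That gene, Smtn, which encodes smoothelin and lies on chromosome 11, changed by 0.51 ± 0.13 (adjusted p = 0.0482). For that comparison 30.1% of the tested genes on chromosome 11 were called higher, against 5.24% elsewhere, and the share of the list, 1 of 16, is near the 5.48% of all genes. The median log2 change of the list was 0.23 on day 9 and 0.43 on day 7. Of its untested genes, Lmod1 was above background on no array, and Myh11 and Rgs5 on 1 array each. Among 7 transgelin and actin paralogs, skeletal muscle actin Acta1 was lower in knockout cultures on day 9 by a log2 change of -1.16 ± 0.18 (adjusted p = 0.0267) and was at 0.58 ± 0.18 on day 7 (adjusted p = 0.169).

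Of 13 other small leucine-rich proteoglycans on the array, 5 passed the filter and 0 were called in any of the 3 genotype comparisons (1 lower on each day and 1 higher and 1 lower for the mean at an unadjusted p under 0.05 in limma). Tsku, with a log2 change of -0.15 ± 0.15 (adjusted p = 0.51), and Podn, with -0.55 ± 0.44 (adjusted p = 0.413), are given for the mean of both days as the list's brightest probes. The median log2 change of the 5 was -0.48 on day 9, -0.05 on day 7 and -0.40 for the mean of both days. Over all genes tested these medians were -0.02, -0.05 and -0.04. In the platelet-derived growth factor list of 5 tested ligands and receptors, the receptor-like gene Pdgfrl was higher in knockout cultures on day 9 by 2.03 ± 0.36 (adjusted p = 0.0344), and the receptor Pdgfra was at 0.78 ± 0.34 (adjusted p = 0.204). Of the 13 TGF-beta ligands, receptors and targets reported here, 0 were called on day 9 or day 7 (1 and 3 higher and 0 lower at an unadjusted p under 0.05 in limma). The brightest probes of that list, for the matrix protein genes Ccn2 and Tgfbi, had log2 changes of -0.25 ± 0.10 (adjusted p = 0.142) and 0.72 ± 0.23 (adjusted p = 0.0799) for the mean of both days. Of 9 tested fatty acid binding and adipocyte genes, 0 were called higher. Pparg, the nuclear receptor of adipocytes that drives Fabp4 in those cells, was lower in knockout cultures by a log2 change of -1.21 ± 0.14 on day 9 (adjusted p = 0.0162) and -1.33 ± 0.14 on day 7 (adjusted p = 0.0348), and Fabp3 was lower for the mean of both days by -0.60 ± 0.12 (adjusted p = 0.028).

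**Figure D4:**
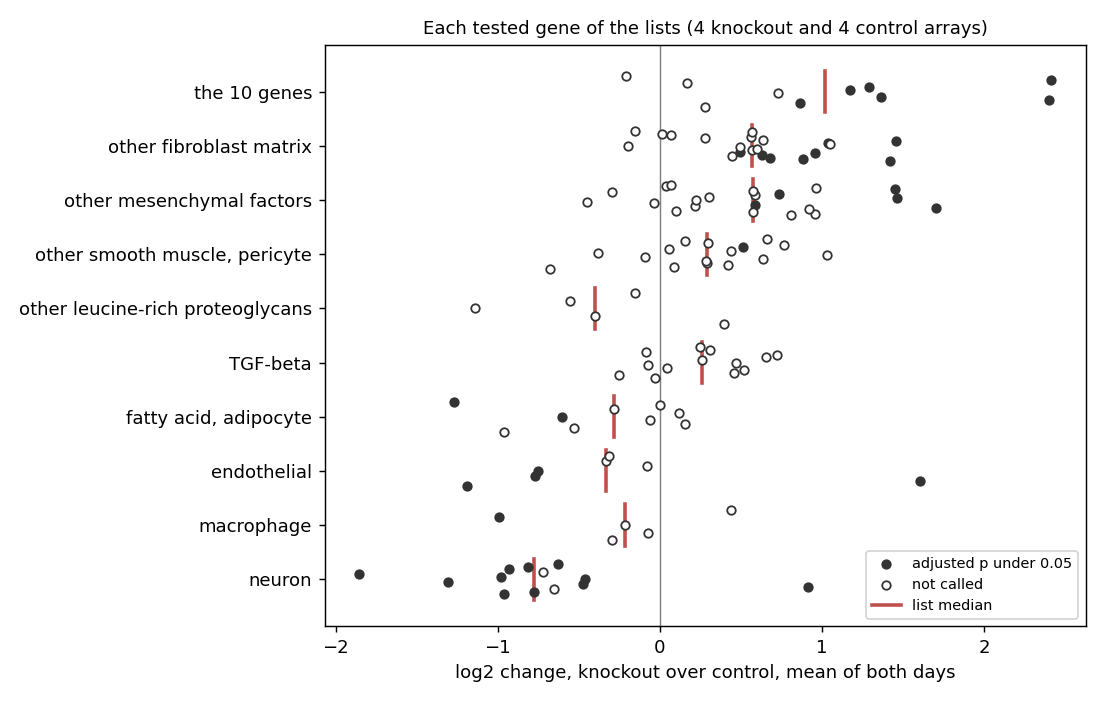
Log2 change, knockout over control, for the mean of both days (x axis) of each tested gene of 10 lists (y axis), 4 knockout against 4 control arrays; filled points had an adjusted p under 0.05 and red bars are list medians. Of the 10 genes described here 6 are filled, all above 0, of the other fibroblast matrix genes 8 are filled, all above 0, and of the 11 filled neuronal markers 10 lie below 0.

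Markers of other cells moved between the genotypes at the same time, and their part in the results above was not tested. Of the 13 motor neuron and pan-neuronal markers, 5 were lower and 1 higher in knockout cultures on day 9, and 10 lower and 1 higher for the mean of both days. Their summed level was 91.0 to 93.0 times the 75th percentile in LitchiKO cultures on day 9, against 158 to 194 in Ctrl cultures, and 174.9 on both LitchiKO arrays of day 7, against 230 to 256 in Ctrl cultures. Stmn2, a growth cone protein, changed by -1.20 ± 0.13 on day 9 (adjusted p = 0.0162), Dcx by -1.02 ± 0.12 (adjusted p = 0.0184) and Prph by -1.92 ± 0.25 (adjusted p = 0.0201), while the motor neuron factor Lhx3 was higher by 0.91 ± 0.16 (adjusted p = 0.0325).

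Thy1 is also a neuronal gene, so 11 other neuronal and GPI-anchored surface genes were set beside it. On day 9, 0 of them were higher and 3 lower, and for the mean of both days 1 was higher and 7 lower. The IgLON proteins Opcml (-0.83 ± 0.15, adjusted p = 0.0335) and Ntm (-1.02 ± 0.18, adjusted p = 0.034) and the adhesion molecule Ncam1 (-0.63 ± 0.12, adjusted p = 0.0388) were the 3 lower on day 9. These are log2 changes, and all 3 are opposite in sign to that of Thy1. Cntn2 was the gene higher for the mean of both days (1.14 ± 0.29, adjusted p = 0.0459).

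Of 7 tested endothelial markers, 0 were called on either single day, and for the mean of both days Emcn was higher (adjusted p = 0.0383). Emcn was above background on 2 of 2 arrays in each knockout group and on 1 of 2 in each control group, so it entered the test only through the knockout groups and no size is given. Cdh5, Flt1 and Esam were lower for the mean of both days, by -1.19 ± 0.21 (adjusted p = 0.0195), -0.75 ± 0.15 (adjusted p = 0.0264) and -0.77 ± 0.19 (adjusted p = 0.0436), with Cdh5 above background on 1 of 2 LitchiKO arrays of day 7. Over all 10 endothelial markers on the array, those below background included, the summed level was 3.37 to 3.63 in LitchiKO cultures on day 9, against 3.80 to 4.89 in Ctrl cultures, and 3.07 to 4.25 in LitchiKO cultures on day 7, against 3.47 to 4.61 in Ctrl cultures. Tie1 and Erg were above background on no array. Of 5 tested macrophage markers, Csf1r alone was called, lower, and C1qa and Tyrobp were above background on no array. Over all 9 macrophage markers on the array the sum was 0.805 to 0.994 in LitchiKO cultures on day 9, against 1.70 to 1.72 in Ctrl cultures, and 0.812 to 0.960 in LitchiKO cultures on day 7, against 1.20 to 1.28 in Ctrl cultures. Csf1r alone made up most of this sum, with a mean log2 level of -0.82 in LitchiKO cultures on day 9, against 0.37 in Ctrl cultures, and none of the other 4 tested markers was called. Of the markers on the array, 4 of the 10 endothelial and 5 of the 9 macrophage markers were above background on all 8 arrays.

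Skeletal muscle markers had 2 of 5 tested genes higher for the mean of both days, Tnnt3 by 0.62 ± 0.13 (adjusted p = 0.0262) and Des (adjusted p = 0.0252), while Myf5 and Ckm were above background on no array. Des was above background on 1 of 2 LitchiKO and 0 of 2 Ctrl arrays of day 9, and on 2 of 2 LitchiKO and 1 of 2 Ctrl arrays of day 7, so it entered the test only through a knockout group and no size is given. Over all 10 muscle markers on the array the sum was 0.652 to 0.702 in LitchiKO cultures on day 9, against 0.458 to 0.577 in Ctrl cultures, and 0.705 to 0.917 in LitchiKO cultures on day 7, against 0.362 to 0.635 in Ctrl cultures. Of 4 cartilage and bone markers and 6 neural crest and Schwann cell markers tested, 0 were called in the 3 genotype comparisons; at an unadjusted p under 0.05 in limma, 1 of each list was higher on day 9, and 1 cartilage and bone marker for the mean. In the crest list, which bears on Twist1, the sum over all 7 markers on the array was 7.13 to 8.45 in LitchiKO cultures on day 9, against 6.97 to 9.43 in Ctrl cultures, and 11.9 to 12.1 in LitchiKO cultures on day 7, against 14.7 to 17.0 in Ctrl cultures. Of 9 spinal progenitor and glial markers, Olig2, Olig1 and Pax6 were higher in knockout cultures on day 9, by 2.93 ± 0.37 (adjusted p = 0.0197), 2.39 ± 0.37 (adjusted p = 0.0271) and 1.64 ± 0.33 (adjusted p = 0.0427); Pax6 was above background on 1 of 2 Ctrl arrays of day 9.

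The interferon response also differed between the arrays. For 15 interferon-stimulated genes the summed level was 582 and 516 in LitchiKO cultures on day 9, against 182 and 527 in Ctrl cultures (replicates 1 and 2), and 191 and 177 in LitchiKO cultures on day 7, against 32.7 and 24.1 in Ctrl cultures. The Ctrl day 9 replicates stood apart in this, and the day 9 changes of the called genes with 1 array left out are given above. On day 9 and on day 7, 0 of the 15 were called (0 and 15 higher at an unadjusted p under 0.05 in limma), and 12 were higher for the mean of both days, led by Isg15 (1.98 ± 0.32, adjusted p = 0.0176), Rtp4 (1.60 ± 0.28, adjusted p = 0.0194) and Usp18 (1.36 ± 0.24, adjusted p = 0.0197).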

How the data were processed

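The authors deposited 1 scanner file per array, made with Agilent Feature Extraction 10.5.1 according to the submitters' processing notes. The intensity used is its processed signal, which per the file headers was background-subtracted and detrended inside each array and not scaled across arrays. A second deposited file gives log2 values, with a median of 5.80 in its first column. The lowest Pearson r of a column with the same array's log2 processed signal was 0.998. The offset of that file stays unknown, and it was used as an alternative.

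Of 62976 spots per array, 3671 controls and 104 to 166 outliers were dropped, and 0 were saturated. Spots of a probe were averaged as log2 signal minus the array's 75th percentile; 55.9% to 67.9% of spots were well above background. Probes were named by RefSeq accession through a mouse gene table on GRCm38.p6, which named 26300 of 55681 probes (47.2%). Probes had to be well above background on the 2 arrays of some group, and the kept probe with the highest mean stood for a gene, which left 33189 probes and 24633 genes.

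limma 3.58.1 in R 4.3.3 (lmFit, eBayes, two-sided) fitted 4 group means over 8 arrays (residual df 4, prior df 2.53). Benjamini-Hochberg adjustment ran over all genes tested, with calls made below 0.05. Comparisons were knockout against control on each day and for the mean of both days, the difference of these effects, and day 9 against day 7 in each genotype. A group below background on all its arrays gave only a bound, and groups measured on 1 of 2 arrays are named beside their values. The number of arrays limits the precision. The fit was tested on simulated data.

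The 10 genes and all lists were chosen with earlier results of these data known, so no p is given for a list. Other named genes follow a rule: the 2 genes most alike each member, up to 3 called genes per list and direction with the lowest adjusted p, and 2 high-signal members of lists with no call. Fbln1, Tcf21 and Meox2 fall outside it and were named after their values were seen. So were the chromosomal neighbours and the untested list genes named for their detection. The mean spot signal was not in the columns used, so the normexp alternative (offset 50) took the median spot signal. Mnx1 was not analysed here, and 1 further gene, of the TGF-beta list, is not reported here, so the counts of that list leave it out.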

Additional observations from a re-analysis of the deposited data

How the results depend on the processing

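With 2 arrays a group, the counts of called genes are fragile. Of 862 values of single genes under the alternatives, 9 changed sign, none of these 9 in a call. A log2 change could move only with another scaling, normexp, the deposited log2 values or an array of the compared groups left out. The remaining alternatives kept each log2 change the same, so its direction was fixed in advance there. On day 7, 2 genes (Thy1 and Pdgfrb) in place of 0 were called when only probes above background on all 8 arrays were tested. Calls among all genes rose there from 53 to 184. The 4 knockout calls of day 9 became 5 with median scaling and 3 with quantile normalization or the deposited log2 values. They became 2 with normexp, 0 with no filter on dim probes and 1 with only the day 9 groups fitted. Some or all of them were lost when 1 array of a day 9 group was left out. The 6 calls for the mean of both days became 2 with no filter, where calls among all genes went from 3653 to 220. Day 9 against day 7 gave 1 call in place of 4 in knockout cultures with no filter (480 in place of 2047 among all genes). In control cultures it gave 0 in place of 5 with no filter (75 in place of 1814 among all genes). With only the control groups fitted it gave 0 (182 among all genes). With 1 array left out, some calls were lost in each comparison that had any. Dropping the filter adds genes to the adjustment, and the smaller fits have fewer arrays; other causes were not tested. The interaction gave 0 calls throughout.

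Values that changed sign were small. Twist1 on day 9 was 0.0094 under median scaling and -0.49 to 0.088 with 1 array left out, and on day 7 -0.57 to 0.14. Ogn on day 9 ran from -0.29 to 0.63, Fabp4 for day in knockout cultures from -0.55 to 0.79 and Thy1 for day in control cultures from -0.32 to 0.41, each with 1 array left out. Median scaling moved the median of all genes on day 9 from -0.02 to 0.19.

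With the replicate number as a block, 4 genes were called on day 9, 0 on day 7, 6 for the mean, 0 for the interaction, and 4 (knockout) and 5 (control) for day, the same counts as without it. The labels do not say that the numbers pair samples, and the correlation of replicate deviations between groups ran from -0.248 (knockout and control on day 9) to 0.464 (knockout and control on day 7). All arrays were on 1 slide and 1 scan, so a slide or scan block was not run.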
